A study of Mus musculus with 4 samples.

Results

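The comparison set 2 mouse embryonic stem cell samples derived under 2i against AFF204#21, a line of the same C57/B6 strain that the labels name only as an embryonic stem cell line. Its members were chosen by strain and derivation and not by any measured value, and they make up 3 of the 4 samples in the series. The 2i-derived samples carry the titles 2i-RFP+ and 2i-RFP-, were both at passage 5 and were each hybridised to 2 arrays. AFF204#21 was at passage 11 and had 1 array. R1, a line of strain 129 at passage 26, stayed outside the comparison, and its single array is quoted beside some values. Per the labels, all 4 samples were kept on a layer of mouse embryonic fibroblasts under standard stem cell conditions, with no inhibitor named, and no genetic change is given for any of them. What RFP reports, the sex of each line and the number of derivations behind the 2i-derived samples are not stated, and their arrays are all named with the stem 2imES#1.

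Biotin-labelled copies of total RNA were hybridised to Illumina MouseWG-6 v2 arrays, on which beads carry gene-specific probes. The medium called 2i combines inhibitors of the kinases MEK and GSK3 and holds mouse embryonic stem cells in a state close to that of the naive epiblast of the early embryo. MEK lies in the pathway through which FGF drives differentiation, and GSK3 marks beta-catenin for destruction, so its inhibition raises WNT signalling. Female mouse stem cells in this state keep both X chromosomes active, and the noncoding RNA Xist coats one of them when inactivation begins. Derivation under 2i, passage number and any other way in which AFF204#21 differs as a line cannot be told apart in this comparison.

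The samples held the markers of embryonic stem cells on feeders. All 11 genes of the core pluripotency list were detected on every array, and their summed linear signal was 71400 to 74900 on the 2i-derived arrays and 74100 on AFF204#21. Markers of fibroblasts were present throughout, with 20 measured genes detected on every array, summing to 21700 to 26700 on the 2i-derived arrays and 25700 on AFF204#21. Postn, which also defines the fibroblasts, was not among the measured genes. Between 19143 and 19865 of 45281 probes were detected per array. In these bulk samples fewer cells of a type and less RNA per cell cannot be told apart.

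Repeat arrays of the 2i-derived samples and the samples themselves were nearly alike, whereas both stood far from AFF204#21. Values are log2 signals after background correction and quantile normalization, and a gene entered when it was detected in at least 1 of the 2 groups, which left 14759 genes. Between arrays A and B, 6 genes differed at least 2-fold in 2i-RFP+ and 1 gene in 2i-RFP-. Between 2i-RFP+ and 2i-RFP-, 4 genes did. Against AFF204#21, 658 genes differed at least 2-fold in 2i-RFP+ and 672 in 2i-RFP-. The line AFF204#21 itself differed from R1 at 854 genes, a larger number than from either 2i-derived sample of its own strain. That pair sets 1 array against 1 array, whereas each 2i-derived sample averages 2, and genes detected in R1 only did not enter.

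**Figure D1:**
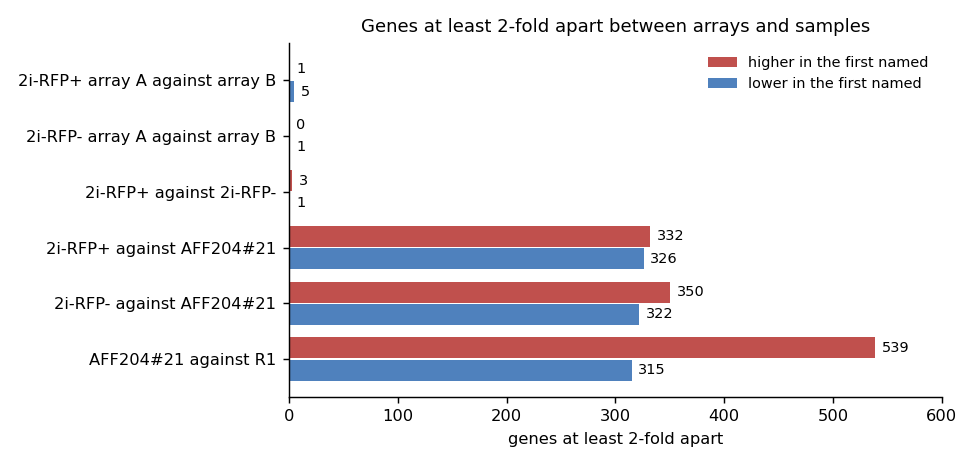
Number of genes at least 2-fold apart (horizontal axis) for 6 pairs of arrays or samples, with red bars for genes higher and blue bars for genes lower in the first named of the pair. The 3 pairs within the 2i-derived samples hold 1 to 6 genes, and the pairs with AFF204#21 hold 658, 672 and 854.

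A gene was counted as different when both 2i-derived samples lay at least 2-fold on the same side of AFF204#21. This held for 550 genes, 3.73% of those measured, with 289 higher (1.96%) and 261 lower (1.77%) in the 2i-derived samples. Counts in gene lists are to be read beside these shares. Of all genes 48.2% lay above 0, with a median log2 difference of -0.02. On all 4 2i-derived arrays taken singly, 449 of the 550 kept that distance. A further 96 genes were 2-fold apart by their mean but not in both samples. At least 4-fold apart were 42 genes on the higher and 36 on the lower side. Of the 289 higher genes 49 were undetected in AFF204#21, and of the 261 lower genes 38 were undetected on all 2i-derived arrays, so that their folds are bounds.

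A fit with limma on these 3 samples gave 5473 genes at an adjusted p under 0.05, 37.1% of all, with 2582 higher (17.5%) and 2891 lower (19.6%), and all 550 genes of the 2-fold count were among them. This fit has 1 residual degree of freedom. Only differences between 2i-RFP+ and 2i-RFP- inform its spread, and AFF204#21 is assumed to vary like them. The fit draws each gene's spread towards that of genes of similar signal, with a weight of 10.7 prior degrees of freedom. The standard errors, and the adjusted p with them, rest mostly on the spread of other genes. An adjusted p therefore says that the AFF204#21 array stands outside the spread of the 2i-derived samples, and the size of a difference is read first. An exact permutation test of 2 samples against 1 cannot give a p below 0.3333, so none is given.

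The X chromosome stood apart from the autosomes. Its 404 measured genes had a median log2 difference of 0.58 in favour of the 2i-derived samples, with an interquartile range of 0.23 to 0.88 and 88.4% of genes above 0. Over 11027 autosomal genes it was -0.04, with 44.4% above 0. The 2-fold count held 62 X-linked genes higher (15.3% of 404) and 7 lower. Leaving out the Rhox genes and Xist left a median of 0.58 over 391 genes. Among the 342 X-linked genes detected on all 5 arrays it was 0.59. The shift ran along the whole chromosome: split in map order into 10 bins of equal gene number, every bin had a median between 0.32 and 0.79. Near this median were Uba1, the ubiquitin-activating enzyme, with 0.58, and Zfx, a zinc finger regulator, with 0.66. Against R1, outside the comparison, the 2i-derived samples had a median of 0.56 over the 404 genes and AFF204#21 had -0.05, with the R1 array shared between these values.

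**Figure D2:**
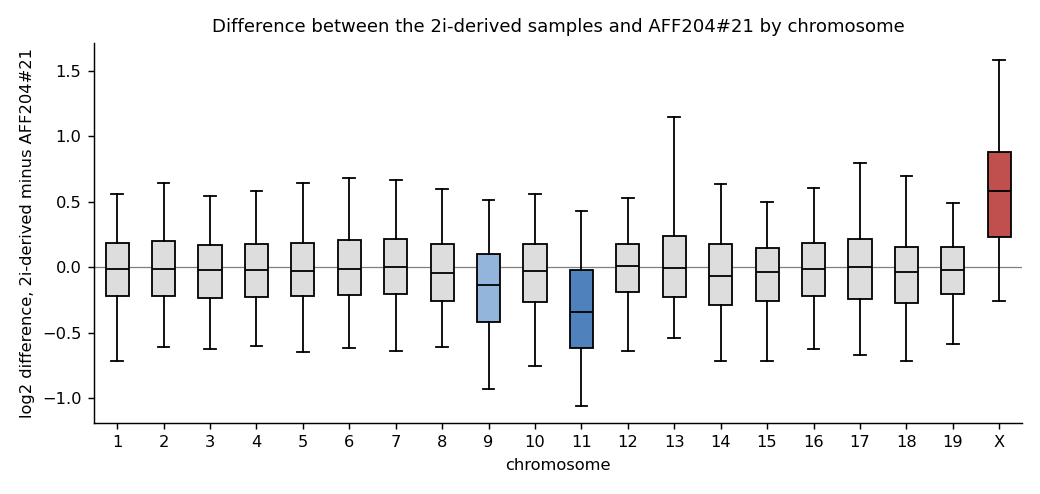
Log2 difference between the mean of the 2i-derived samples and AFF204#21 (vertical axis) for the genes of chromosomes 1 to 19 and X (horizontal axis), with boxes from the lower to the upper quartile, a line at the median and whiskers at the 5th and 95th percentiles. The X chromosome, in red, has a median of 0.58, chromosome 11, in dark blue, of -0.35 and chromosome 9, in light blue, of -0.13, while the other autosomes lie between -0.07 and 0.01.

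X-linked partners of Y genes, which keep a related gene on the Y, were all above 0. The list had 8 measured members with a median of 0.69, and 3 were higher by the 2-fold rule. Kdm6a, a histone demethylase, was at 12.41 and 12.38 in 2i-RFP+ and 2i-RFP- against 10.98 in AFF204#21 (2.67-fold). Usp9x, a deubiquitinase, was at 7.80 and 7.92 against 6.38 (2.79-fold), and its second probe gave a smaller log2 difference of 0.50. Rbmx, a splicing factor, was at 7.93 and 7.71 against 6.51 (2.49-fold). Ddx3x, an RNA helicase, had the smallest difference of the list, 0.17. In the deposited table of log2 values, which averages all probes of a target and has no background correction, none of the 8 passed the rule, with 0.92 for Kdm6a, 0.31 for Usp9x and 1.06 for Rbmx, which was 2-fold apart in only 1 of the samples, and the median was 0.63. Without background correction Rbmx also missed the rule.

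All 4 measured Y-linked genes were below 0. Eif2s3y, a translation initiation factor gene, read 6.04 and 6.47 on the arrays of 2i-RFP+ and 6.18 and 5.81 on those of 2i-RFP-, against 10.32 in AFF204#21 and 11.07 in R1. It was 18.3-fold lower (limma adjusted p = 3.18e-09) and still detected on all 4 2i-derived arrays. Sly, a spermatid gene with many Y-linked copies, was undetected on the 2i-derived arrays and at least 2.44-fold lower. Ddx3y, the Y-linked helicase, was 2.28-fold lower with 9.33 and 9.22 against 10.47, and had -0.37 and no call in the deposited table. Uty, a demethylase-related gene, had -0.46 and stayed under 2-fold.

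The Xist RNA was higher in the 2i-derived samples. It read 8.82 and 8.67 on the arrays of 2i-RFP+ and 8.60 and 8.68 on those of 2i-RFP-, against 6.63 in AFF204#21 and 6.73 in R1, a 4.18-fold difference (log2 2.06 ± 0.12 SE, limma adjusted p = 2.43e-07). Its 3 other probes gave 1.06 to 2.09. Of the other measured genes near the X inactivation centre, Rlim, whose ubiquitin ligase promotes Xist expression, had 0.39 and Chic1, a neighbour of Xist, had 0.88.

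The highest differences on the X belonged to the Rhox cluster, homeobox genes active in gonads, placenta and germ cells. Of 25 listed Rhox genes 12 were measured and 7 were higher by the 2-fold rule, against 1.96% of all genes. The median over the 12 was 2.25 as measured and 1.86 with the 4 members undetected in AFF204#21 at their bounds. Those 4 passed the filter on detection only through the 2i-derived samples. The median was 1.54 without background correction and 1.45 with the deposited table, and 7 were higher under both. The promoters of the cluster are known in the mouse as targets of DNA methylation, which acts on the C of CG, so CG is capitalised in the promoters of 4 members shown here. These data hold no methylation. Rhox2a, Rhox4b and Rhox1 were among the higher members and Rhox10 had the lowest difference of the cluster. Each sequence runs 5′ to 3′ on the gene's own strand from 250 bases before to 50 bases after the gene's start in RefSeq, build GRCm38.p6: Rhox2a at chrX:37244742-37245041 and Rhox4b at chrX:37432244-37432543 on the plus strand, Rhox1 at chrX:37222209-37222508 on the minus strand and Rhox10 at chrX:38066225-38066524 on the plus strand.
Rhox2a: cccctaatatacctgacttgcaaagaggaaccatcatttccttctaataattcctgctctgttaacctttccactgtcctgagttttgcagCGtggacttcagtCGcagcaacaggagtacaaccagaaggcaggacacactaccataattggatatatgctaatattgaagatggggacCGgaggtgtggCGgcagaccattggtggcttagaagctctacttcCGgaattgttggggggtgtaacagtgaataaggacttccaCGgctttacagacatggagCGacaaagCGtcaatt
Rhox4b: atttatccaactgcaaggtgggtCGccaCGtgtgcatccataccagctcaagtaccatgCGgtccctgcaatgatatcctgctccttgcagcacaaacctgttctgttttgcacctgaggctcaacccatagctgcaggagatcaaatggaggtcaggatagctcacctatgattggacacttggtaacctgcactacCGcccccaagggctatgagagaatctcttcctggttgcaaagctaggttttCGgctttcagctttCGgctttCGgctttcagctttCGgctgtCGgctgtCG
Rhox1: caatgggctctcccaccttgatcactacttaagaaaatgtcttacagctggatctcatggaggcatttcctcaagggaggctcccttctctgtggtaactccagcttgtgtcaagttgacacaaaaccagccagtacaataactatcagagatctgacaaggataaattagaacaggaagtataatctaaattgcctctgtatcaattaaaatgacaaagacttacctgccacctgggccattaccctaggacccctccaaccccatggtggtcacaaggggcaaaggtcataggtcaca
Rhox10: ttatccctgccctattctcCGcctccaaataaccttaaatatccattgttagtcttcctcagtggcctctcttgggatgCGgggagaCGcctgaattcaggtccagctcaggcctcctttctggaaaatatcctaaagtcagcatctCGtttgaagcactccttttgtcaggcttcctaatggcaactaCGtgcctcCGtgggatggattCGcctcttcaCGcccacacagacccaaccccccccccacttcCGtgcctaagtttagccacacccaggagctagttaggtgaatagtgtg
The table listed a promoter for 9 of the 12 measured members. CG, which reads the same on both strands, occurred 8 times in the Rhox2a window, 10 times in each of Rhox4b and Rhox4g and 0 times in that of Rhox1. It occurred 9 times in Rhox10, 5 times in each of Rhox5 and Rhox13, 3 times in Rhox12 and 2 times in Rhox3a. The number of CG thus overlapped between members with a high and with a low difference. Of 27025 RefSeq promoters of the same length 94.2% hold CG, with a median of 7, and the 348 promoters of measured X-linked genes have a median of 14.

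Rhox2a read 8.93, 8.90, 8.90 and 9.03 on the 2i-derived arrays and 5.07, undetected, in AFF204#21, so that it was at least 13.6-fold higher. Rhox4d was at 10.61 in 2i-RFP+ and 10.49 in 2i-RFP- against 7.03 (11.4-fold). Rhox9 was at 13.78 and 13.75 against 11.33 (5.39-fold). Rhox6, at 12.11 in both samples against 9.79, was 5.01-fold higher. Rhox4b, Rhox4g and Rhox1 were undetected in AFF204#21 and at least 6.00-fold, 3.95-fold and 3.36-fold higher. That both 2i-derived samples lay above AFF204#21 in all 7 follows from the rule that counted them. Rhox5, also known as Pem, had 14.98 and 14.92 against 14.01, a difference of 0.94 that stayed under 2-fold. Rhox12 (0.22) and Rhox3a (0.07) differed little in size (limma adjusted p = 0.293 and 0.779). Rhox13 had -0.42. Rhox10 went the other way, with 6.04 and 5.97 against 7.01, a difference of -1.003 that reached 2-fold in 2i-RFP- only. The Rhox2 and the Rhox4 genes each include copies of almost the same sequence that probes may not tell apart, and the second Rhox4b probe gave 1.08.

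Further X-linked genes were among the largest differences. Scml2, a Polycomb protein of male germ cells, was undetected in AFF204#21 and at least 4.61-fold higher, with 0.61 and no call in the deposited table. Fmr1nb, a cancer-testis antigen gene, was at 12.42 and 12.40 against 10.25 (4.49-fold), and its second probe gave a log2 difference of 2.14 beside 2.17. Efhc2, which encodes a protein of ciliary microtubules, was 8.77-fold higher, with 10.48 and 10.90 against 7.56. Of the listed genes, spermine synthase Sms was 2.84-fold higher, with 0.70 and no call in the deposited table, and Fgf13, an intracellular FGF family member, was 2.84-fold higher.

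The lower X-linked genes were 7, led by Erdr1, which lies in the region where X and Y pair and recombine. Erdr1 read 7.98 and 8.30 on the arrays of 2i-RFP+ and 7.92 and 7.67 on those of 2i-RFP-, against 13.34 in AFF204#21 and 11.94 in R1. Its 41.3-fold difference was the largest of all 14759 genes, and its second probe gave a log2 difference of -5.29. Mid1, a ubiquitin ligase gene that in Mus musculus spans the edge of the same region, was detected on 1 of the 4 2i-derived arrays and at least 6.68-fold lower. With the deposited table its difference was -0.64 and under 2-fold. Slc38a5, a glutamine transporter, was at 5.95 and 5.90 against 8.90 in AFF204#21 and 8.88 in R1 (7.82-fold). Plac1, expressed in placenta, was undetected on the 2i-derived arrays and in R1, and at least 3.50-fold lower. Radx, which guards replication forks, was 3.93-fold lower (-1.98), with -1.80 and -0.71 by its other probes. Tcp11x2 (-1.37) and 1700011M02Rik, which has no assigned symbol, were the last of the 7.

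Among the autosomes, chromosome 11 stood lower in the 2i-derived samples. Its 950 genes had a median log2 difference of -0.35 with 23.4% above 0, and 49 were lower and 7 higher by the 2-fold rule. The shift was not even along the chromosome. Split into 10 bins as for X, bins 1 and 2 had medians of 0.02 and 0.06, and bins 3 to 10 lay between -0.53 and -0.31. Over the 760 genes of those 8 bins the median was -0.42, and 45 were lower and 3 higher by the 2-fold rule. This corresponds to a median signal ratio of 0.750 to AFF204#21.

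Chromosome 9 had a similar step, seen when all chromosomes were split in the same way. Bins 1 to 4, with 268 genes, had a median of -0.38 (a signal ratio of 0.770) and held 15 of the chromosome's 22 lower genes. The other 6 bins, with 399 genes, had a median of -0.02. On the remaining autosomes 170 bins had medians of -0.23 to 0.59, with none at or below -0.25 and 1 at or above 0.25. In all bins of all chromosomes the medians of 2i-RFP+ minus 2i-RFP- lay between -0.04 and 0.08. Set beside R1, AFF204#21 was itself higher over both stretches, by medians of 0.27 on chromosome 11 and 0.34 on chromosome 9. The 2i-derived samples differed from R1 by -0.16 and -0.09 there. The stretches were chosen after their values were seen, the comparisons share arrays, and nothing about DNA copy number was measured.

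**Figure D3:**
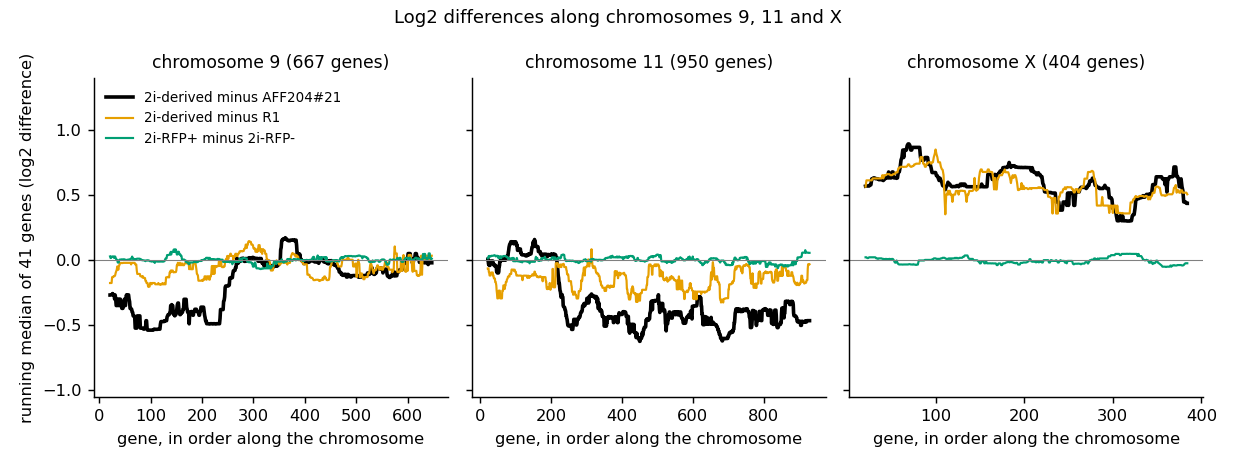
Running median over 41 genes of the log2 difference (vertical axis) along chromosomes 9, 11 and X, with genes in map order (horizontal axis). The line of 2i-derived minus AFF204#21, in black, drops to medians of -0.38 over bins 1 to 4 of chromosome 9 and -0.42 over bins 3 to 10 of chromosome 11 and lies at 0.58 over X, while 2i-RFP+ minus 2i-RFP-, in green, stays near 0.

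The paired keratin genes Krt8 and Krt18 showed some of the largest differences, lower in the 2i-derived samples. They form the intermediate filaments of simple epithelia and trophectoderm and lie on chromosome 15, away from the shifted stretches. Krt8 read 8.49 and 8.31 in 2i-RFP+ and 8.53 and 8.43 in 2i-RFP-, against 12.11 in AFF204#21 and 9.94 in R1 (12.7-fold, log2 -3.66 ± 0.09 SE, limma adjusted p = 2.57e-10). Krt18 was at 7.66 and 7.57 against 10.92 in AFF204#21 and 8.14 in R1 (9.90-fold). The line AFF204#21 was the highest sample for both. Of 17 measured keratin genes, gathered after these values were seen, 4 were lower and 0 higher, with a median of -0.48. Krt19 (-1.81) and Krt14 (-1.39) were the other 2, and they lie on chromosome 11 like 13 of the 17.

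Laminin genes of the basement membrane were lower too. All 9 measured laminin chain genes were below 0, with a median of -0.80. Lama3, a chain of the laminin that anchors epithelia, was at 8.30 and 8.17 against 10.19 (3.89-fold lower). Lamb3 had -1.01 and missed 2-fold in 2i-RFP-. Lama1, of the embryonic laminin-111, was 2.89-fold lower. Of 15 measured integrin chain genes 3 were lower (1.77% of all genes) and 0 higher, and 3 lay above 0. The lower ones were Itgb4 (-1.52) and Itga3 (-1.35), both receptor chains for laminins, and Itgae (-1.41). All 3 lie on chromosome 11, where 5.16% of genes were lower and the median was -0.35. Both families were gathered after their values were seen. The envelope protein gene Evpl (-1.40, chromosome 11) and the keratinocyte transglutaminase Tgm1 (-2.05, chromosome 14) were also lower.

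The core pluripotency genes differed little in size. None of 11 passed the 2-fold rule in either direction, which 3.73% of all genes did. The median log2 difference was 0.02, beside -0.02 over all genes. Pou5f1, which encodes Oct4, read 13.33 and 13.18 in 2i-RFP+ and 13.32 and 13.23 in 2i-RFP-, against 13.17 (limma adjusted p = 0.186). Nanog read 13.03 and 13.01 in 2i-RFP+ and 13.03 and 13.12 in 2i-RFP-, against 12.55, a 1.42-fold difference (limma adjusted p = 6.05e-05). Sox2 had 0.20 (adjusted p = 0.111), and its second probe gave -0.41. Lin28a had -0.24, with -0.47 and 1.04 by its other probes, so neither gene has a settled direction.

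The naive pluripotency list split. Of 15 measured genes 2 were higher and 1 lower, with a median of -0.03. Tcl1, a cofactor of the kinase Akt, was at 12.19 and 12.30 against 10.76 (2.80-fold). Dppa3, a maternal factor that protects methylation in the zygote and marks germ cells, was at 12.23 and 12.29 against 10.95 (2.49-fold). Gbx2, a homeobox gene that sustains naive cells and also patterns the hindbrain border, read 9.45 and 9.44 in 2i-RFP+ and 9.55 and 9.42 in 2i-RFP-, against 12.73 in AFF204#21 and 13.01 in R1 (9.63-fold lower, limma adjusted p = 2.57e-10). Klf4 had -0.85 and was 2-fold lower in 2i-RFP+ only. Zfp42, which encodes Rex1, was at 9.48 and 9.67 against 9.29 in AFF204#21 (adjusted p = 0.0521) and 12.83 in R1, so the C57/B6 samples lay together and R1 apart. Outside the list Pramel7, which promotes the naive state, was undetected in AFF204#21 and at least 3.97-fold higher. The homeobox gene Crxos was 8.09-fold lower, with 5.57 in both samples against 8.59, and detected on 3 of the 4 2i-derived arrays.

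Of the primed epiblast list 2 of 12 genes were higher and none lower, with a median of 0.19. Fgf5, the growth factor of the postimplantation epiblast, was at 9.04 in 2i-RFP+ and 8.24 in 2i-RFP- against 6.69 (3.89-fold). Fgf8, of the primitive streak and epiblast, was at 8.18 and 7.31 against 5.43 in AFF204#21 and 7.18 in R1 (4.96-fold). In both genes 2i-RFP+ lay above 2i-RFP-, and both samples lay above AFF204#21, as the 2-fold rule requires. Otx2, a regulator of the exit from the naive state, had 0.60, under 2-fold. Zic2 was undetected in AFF204#21 and at least 1.38-fold higher, and it did not pass the rule.

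**Figure D4:**
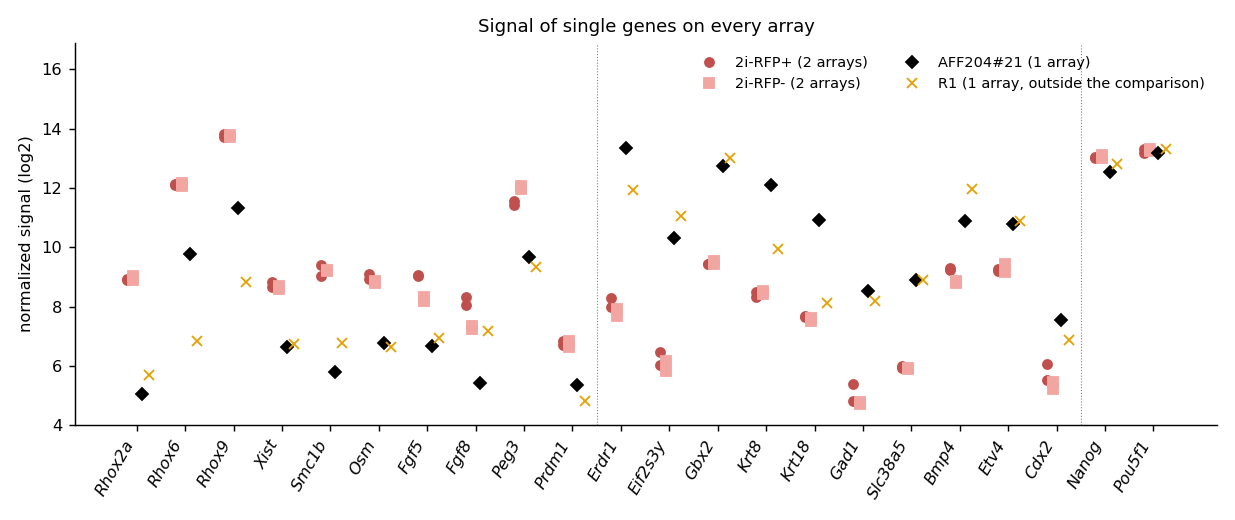
Normalized log2 signal (vertical axis) of 22 genes on each array, with red circles for 2i-RFP+, pink squares for 2i-RFP-, black diamonds for AFF204#21 and orange crosses for R1, and dotted lines between genes higher, lower and under 2-fold apart. Within a gene the 4 2i-derived points lie on the same side of AFF204#21 in the first 20 genes, with 2i-RFP+ above 2i-RFP- in Fgf5 and Fgf8. These 20 were picked among genes that passed the 2-fold rule, which fixes the side of each sample. Nanog and Pou5f1 lie within 1 unit on all arrays.

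Most listed genes of primordial germ cells lay above 0. Of 12 measured genes 3 were higher (1.96% of all genes) and none lower, and 10 lay above 0, where 48.2% of all genes did. The median was 0.47, or 0.39 with 2 members undetected in AFF204#21 at their bounds. Those 2 passed the filter on detection only through the 2i-derived samples, and the counts include them. Nanos3, an RNA-binding protein that keeps germ cells alive, was at 7.86 and 7.71 against 5.92 (3.64-fold). Prdm1 encodes Blimp1, the repressor in the title of the series and a determinant of germ cell fate. It read 6.86 and 6.69 in 2i-RFP+ and 6.83 and 6.65 in 2i-RFP-, against 5.35 in AFF204#21, and was undetected in R1 (2.66-fold, log2 1.41 ± 0.15 SE, limma adjusted p = 1.98e-05). The samples 2i-RFP+ and 2i-RFP- overlapped in Prdm1. It fell under the 2-fold rule without background correction, with 0.94. Kit, the receptor for stem cell factor, had 0.64 and Dppa3 is given above.

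Of 18 measured meiotic and piRNA genes 2 were higher and none lower, with a median of 0.06. Smc1b, the cohesin subunit of meiotic chromosomes, read 9.40 and 9.03 in 2i-RFP+ and 9.21 and 9.22 in 2i-RFP-, against 5.79 (10.8-fold). Tdrd12, of the piRNA pathway, was at 13.02 and 12.92 against 11.89 (2.11-fold). Stk31 (0.99) fell just short in 2i-RFP+. Asz1 was undetected in AFF204#21 and at least 1.81-fold higher, and it also missed the rule in 2i-RFP+. In 2i-RFP- alone 4 genes were higher. The germ cell gene Tex19.1, on chromosome 11, had -0.89. Fkbp6, a chaperone partner needed in meiosis, was 4.69-fold higher outside the list.

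Feedback genes of MEK and ERK signalling were mostly below 0 but small in size. Of 15 measured genes 1 was lower (1.77% of all genes) and none higher by the 2-fold rule. The median was -0.25 and 4 lay above 0, where 48.2% of all genes did. In 2i-RFP+ alone 3 were at least 2-fold lower. Etv4, an ETS factor induced by FGF, was at 9.24 and 9.29 against 10.78 in AFF204#21 and 10.88 in R1 (2.86-fold), and it lies on the shifted part of chromosome 11. Spry4, an inhibitor of receptor kinase signalling, had -0.98, Phlda1 -0.91 and the immediate early gene Egr1 -0.66. Dusp6, the ERK phosphatase, had -0.25.

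The list of FGF ligands and receptors, which also holds a carrier, went both ways, with 4 of 11 measured genes higher and 2 lower. Beside Fgf5, Fgf8 and Fgf13, Fgf15 was higher, at 7.73 and 7.61 against 6.13 (2.91-fold). Fgf17 was at 8.29 and 8.52 against 10.06 (3.15-fold lower, -1.04 and no call in the deposited table), and Fgfbp1, a carrier that releases FGFs from the matrix, at 8.14 and 7.78 against 10.17 (4.61-fold lower). Fgf4, the autocrine ligand of embryonic stem cells, had 0.27 and its main receptor Fgfr1 0.11. The receptor Fgfr2 had 0.80.

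None of 11 measured WNT target genes lay above 0, whereas 48.2% of all genes did. By the 2-fold rule 3 were lower, with a list median of -0.38. Cdx2 read 5.53 and 6.06 in 2i-RFP+ and 5.23 and 5.46 in 2i-RFP-, against 7.53 (3.90-fold). Sp5 was at 9.02 in 2i-RFP+ and 8.17 in 2i-RFP- against 10.40 (3.50-fold), and Cdx1 at 5.63 and 5.67 against 7.26 (3.06-fold). Axin2, the feedback inhibitor of the pathway, was at 7.88 and 7.58 against 8.73 and was 2-fold lower in 2i-RFP- only. It lies on chromosome 11, and without chromosomes 9, 11 and X the list kept 8 genes, 3 of them lower, with a median of -0.34. The ligand Wnt3a was detected on 1 of the 4 2i-derived arrays and at least 2.84-fold lower, and it missed the rule without background correction.

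In the LIF and STAT3 list 1 of 15 genes was higher and none lower. Osm, a cytokine of the LIF family, read 9.11 and 8.93 in 2i-RFP+ and 8.81 and 8.87 in 2i-RFP-, against 6.77 in AFF204#21 and 6.63 in R1 (4.46-fold). Osm lies on chromosome 11, where bins 1 and 2 had a median of 0.05 and bins 3 to 10 of -0.42. Which of these bins holds Osm is not given here. Stat3 had -0.89, its feedback inhibitor Socs3 -0.84 and the kinase gene Tyk2 -0.96, and they lie on chromosomes 11, 11 and 9. Without chromosomes 9, 11 and X no gene of the list passed the 2-fold rule and the median was -0.09.

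Among BMP and Nodal genes 2 of 17 were lower, with a median of -0.07. Bmp4 read 9.30 and 9.23 in 2i-RFP+ and 8.80 and 8.86 in 2i-RFP-, against 10.90 in AFF204#21 and 11.97 in R1 (3.61-fold lower). Bmp8b was detected on 1 of the 4 2i-derived arrays and at least 2.89-fold lower. Nodal itself had 0.05 and the BMP target Id1 -0.61.

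Markers of other lineages differed by list. Below 0 were 8 of 11 trophectoderm and 9 of 12 endoderm genes, and 3 of 5 neural and 5 of 9 mesoderm genes. Of all 14759 genes 7642 were below 0. In the trophectoderm list 4 of 11 measured genes were lower (1.77% of all genes) and none higher, with a median of -0.41. These were Krt8, Krt18, Cdx2 and Plac1, while Eomes had 0.81, Tfap2c 0.41 and Tead4 0.34. Plac1, undetected on the 2i-derived arrays, passed the filter on detection only through AFF204#21, and the count includes it. The list's summed linear signal was 10600 to 12500 on the 2i-derived arrays, 15600 on AFF204#21 and 5170 on R1. Such a sum follows the brightest genes. Krt8 and Krt18, at log2 12.11 and 10.92 in AFF204#21 against means of 8.44 and 7.61 in the 2i-derived samples, make up a large part of it in AFF204#21. The sum therefore does not describe the other members of the list. Against R1 the median of the list was 0.39, so the 2i-derived samples were lower than AFF204#21 only. The neural list had 5 measured genes, of which 3 were lower: Gbx2, Sox21 (-1.51) and En2 (-1.30). With the deposited table Sox21 had -0.57 and 2 were lower. Nes, an intermediate filament gene of neural progenitors, had 0.71. Of 12 endoderm genes only Lama1 was lower by the 2-fold rule, and Gata6 had -0.31. Sox7 had 0.59, with -0.32 and 0.47 by its other probes, so its direction is not settled. The sum of the endoderm list was 11100 to 12000 against 14600 in AFF204#21 and 16200 in R1. In the mesoderm list 2 of 9 genes were lower (Wnt3a and Cdx1) and Fgf8 was higher.

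No fibroblast gene passed the 2-fold rule, with 20 measured and a median of -0.03. The largest sizes were Tagln at -0.65 and Pdgfrb at -0.47, and Col1a1, the main fibroblast collagen, was at 9.22 and 9.10 against 9.51 (-0.35, limma adjusted p = 0.0155). In 2i-RFP+ the list's median against AFF204#21 was 0.08 and in 2i-RFP- it was -0.12.

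**Figure D5:**
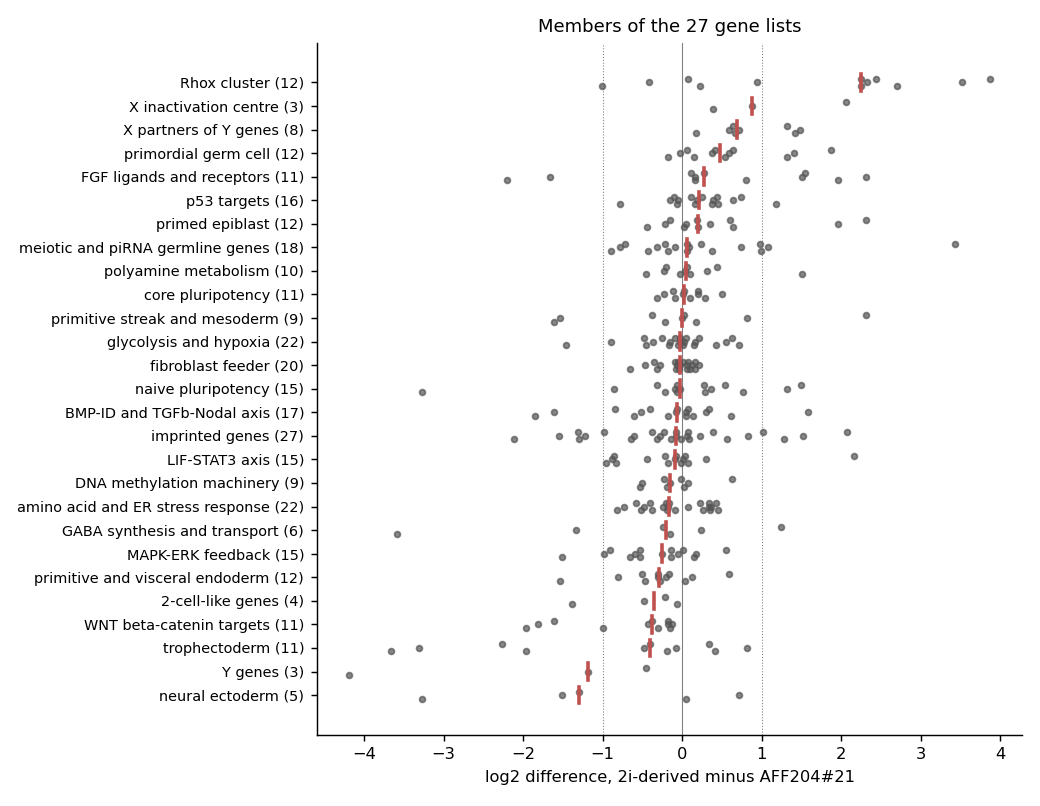
Log2 difference of the 2i-derived samples from AFF204#21 (horizontal axis) for each measured member of 27 gene lists, 1 row a list with the number of members in brackets, with red bars at the medians and dotted lines at 2-fold. The Rhox cluster has the highest median, 2.25 as measured or 1.86 with undetected members at their bounds, and the neural list the lowest, -1.30 over 5 genes or -0.57 with the deposited table.

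Imprinted genes, expressed from the copy of 1 parent, went both ways, with 3 of 27 higher and 3 lower. In 2i-RFP- alone 5 were higher and 6 lower. Peg3, a paternally expressed zinc finger gene, was at 11.49 and 12.01 against 9.68 in AFF204#21 and 9.32 in R1 (4.21-fold), with 2.30 by its second probe. Meg3, a maternally expressed noncoding RNA, was at 9.21 and 9.45 against 7.81 (2.87-fold), with 0.45 by its second probe and 0.52 in the deposited table. Kcnq1ot1, the noncoding RNA that silences the Cdkn1c domain, was at 6.58 and 6.99 against 5.51 (2.42-fold). Grb10, an inhibitor of insulin and IGF receptor signalling on chromosome 11, was at 10.58 and 10.17 against 12.50 (4.34-fold lower), with -1.07 by its second probe and -0.92 in the deposited table. Igf2 was 2.34-fold lower and Nnat 2.47-fold lower. Phlda2 was at 11.30 in 2i-RFP+ and 10.16 in 2i-RFP- against 12.28, so that it was 2-fold lower in 2i-RFP- only, and the same held for Cdkn1c with 11.78 and 10.41 against 12.39.

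The genes of GABA metabolism included one of the largest differences. Gad1, which makes GABA, read 4.81 and 5.39 in 2i-RFP+ and 4.79 and 4.70 in 2i-RFP-, against 8.51 in AFF204#21 and 8.20 in R1. It was detected on 1 of the 4 2i-derived arrays and at least 9.55-fold lower, and its other probes gave -3.54 and -2.83. Slc32a1, the vesicular GABA transporter, was undetected in the 2i-derived samples and at least 2.11-fold lower. Slc6a13, a plasma membrane GABA transporter, was 2.36-fold higher, at 6.78 and 6.43 against 5.36, but not on every array taken singly. It missed the rule without background correction and with the deposited table (0.82 under both) and with B arrays alone, and Slc32a1 missed it under the first 2 of these (-0.85). Abat, which breaks GABA down, had -0.24.

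The other lists held few genes past 2-fold. Among p53 targets 1 of 16 was higher, the BH3 gene Pmaip1 at 9.55 and 9.52 against 8.35 (2.27-fold), and 11 lay above 0. Pmaip1 had 0.64 and no call in the deposited table. In glycolysis 1 of 22 was lower, Eno3 of muscle on chromosome 11 (2.75-fold), and in polyamine metabolism 1 of 10 was higher, the X-linked Sms. None of 22 amino acid and ER stress genes and none of 9 genes of DNA methylation passed the rule. Dnmt3l, a cofactor of de novo methylation, had -0.53 and Dnmt1, the maintenance enzyme on chromosome 9, -0.22. Of 4 measured 2-cell-like genes Zscan4c was lower, with 6.28 and 6.04 against 7.54 in AFF204#21 and 11.76 in R1, and it missed the rule without background correction and with the deposited table.

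Further genes with the largest differences fell outside the lists. Higher in the 2i-derived samples were Serpina3m, a protease inhibitor (9.72 and 9.55 against 6.24, 10.5-fold), and Prlr, the prolactin receptor (9.33 and 9.19 against 6.17, 8.50-fold). The 2 other Prlr probes gave 0.37 and 1.67, and with the deposited table Prlr had 0.91 and missed the rule. Dnajc5g, a chaperone gene of testis, was undetected in AFF204#21 and at least 6.10-fold higher, and the synaptic organiser Cbln4 at least 2.90-fold. Fermt1, which activates integrins, was at 10.84 and 10.76 against 8.79 in AFF204#21 and undetected in R1 (4.03-fold), so that the 3 C57/B6 samples lay above R1. The smooth muscle related gene Smtnl1 was 4.39-fold higher and Zfp607b 4.21-fold.

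Lower in the 2i-derived samples were the caveolar coat gene Cavin1 on chromosome 11 (6.63 and 6.77 against 9.08, 5.22-fold) and the peptide transporter Slc15a2, detected on 1 of the 4 2i-derived arrays and at least 5.98-fold lower. The second Cavin1 probe gave -0.53. Sh3rf2 was undetected in the 2i-derived samples and at least 5.48-fold lower, and Nkx6-3, a homeobox gene of gut endocrine cells, at least 3.66-fold. Tmem45b on chromosome 9 was 6.01-fold lower and detected on 3 of the 4 2i-derived arrays. Accsl, the neuroendocrine regulator Insm1 and the immediate early gene Egr4 were each detected on 1 of the 4 2i-derived arrays, and were at least 4.34-fold, 3.84-fold and 3.67-fold lower. The muscle genes Tnnc2 (4.79-fold) and Acta1 (4.44-fold), the lipase-related Pnpla3 (4.22-fold) and the trypsin inhibitor Spink1 (4.19-fold) completed the 25 largest differences on the lower side.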

How the data were processed

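Each array was deposited as a bead intensity per probe on a linear scale, summarised in Illumina GenomeStudio 1.0.6 without normalization, per the file headers. A detection p was taken as 1 minus the deposited detection score, a fraction from 0 to 1. The deposited bead counts and the deposited bead-level signal spread per probe served to describe precision, with a median of 41 to 43 beads per probe and a standard error of 4.30% to 5.98% of the signal. The deposited log2 table, with 1 row per target, was an alternative. The sources used here do not name its method, and it equals the mean over probes and arrays of quantile-normalized log2 intensity (Pearson r of 1.0 across 31458 targets, 95% of differences within 0.00092). Its column medians were 5.91, 5.91, 5.91 and 5.92.

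The intensities were normalized by neqc (offset 16) in limma 3.58.1 under R 4.3.3, and arrays of a sample were averaged afterwards. A gene was its brightest probe with a mean detection p under 0.05 in at least 1 of the 2 groups. The single AFF204#21 array and the median intensities of 59.3 to 63.2 limit the precision. A gene undetected in a group has a bound there, given as at least N-fold, against the higher of its own value and the lowest value of a detected probe on each array. The same bound is given for a gene detected on 1 of the 4 arrays of the dimmer group. Of 31490 targets 13430 matched a current symbol and 6754 a synonym, 11281 kept the file's name and 25 were left out because a spreadsheet had turned them into dates. Promoters, chromosomes and gene order are those of RefSeq on GRCm38.p6, and 3323 measured genes have no chromosome there.

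The limma fit (lmFit, then eBayes with its trend option, two-sided tests, Benjamini-Hochberg adjustment over all 14759 genes) was tested on 20 simulated data sets of 2 samples against 1. It passed 0.0639% of unchanged genes, 0.40% of those changed by 0.5 log2 units, 33.9% of those changed by 1, 96.9% by 2 and 99.4% by 3. Every simulated gene varied alike in both groups, and only a small part of the genes was changed. The simulated spread came from samples that average 2 arrays, whereas AFF204#21 has 1 array. These shares therefore do not carry over to the real fit. No label ties the samples to separate cultures, and the spread behind the p-values may be technical.

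Named genes are the 25 largest differences in each direction that hold on every array and have a proper symbol and no opposite probe, up to 4 members of each list by size, all measured members of the Rhox, X inactivation, Y and X-partner lists, and 10 fixed genes. The comparison, the 27 lists and the rule were chosen with earlier results of these data known, and genes named outside the rule were chosen after their values were seen. The alternatives were other background corrections, scaling, filters, probe summaries, single arrays, leaving out a sample, R1 in the fit and no trend. Some results are not reported here.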

Additional observations from a re-analysis of the deposited data

How the results depend on the processing

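The 550 genes of the 2-fold count became 324 without background correction and 243 with the deposited log2 table, and numbered 525 to 550 under the other processing alternatives and 657 to 672 when 1 of the 2i-derived samples was left out. Without chromosomes 9, 11 and X, a choice made after seeing the data, 399 remained. The 54 listed genes past 2-fold became 35 with the deposited table and 35 without those chromosomes. The X-linked median of 0.58 was 0.53 without background correction, 0.14 without a detection filter (which adds undetected genes), 0.59 with the mean of probes, 0.57 with A arrays alone, 0.59 with B arrays alone, 0.59 when either sample was left out (0.5851 and 0.5888) and 0.40 with the deposited table. The chromosome 11 median of -0.35 was -0.28 without background correction, -0.11 without a detection filter, -0.33 with A arrays alone, -0.35 to -0.33 (-0.3472 and -0.3342) with 1 sample left out and -0.24 with the deposited table. The stretches had medians of -0.42 to -0.30 on chromosome 11 and -0.40 to -0.27 on chromosome 9 under all alternatives run on them. The limma count of 5473 was 2933 with A arrays alone, 3936 with B arrays alone and 4156 to 5515 under the others. With 1 of the 2i-derived samples left out the limma fit has no residual degrees of freedom and was not run. The headers name no slide, so the slide alternative was not run. No paired analysis was possible because the labels give no replicate numbers and AFF204#21 has 1 sample.

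Of 143 named genes 111 kept their direction and their side of the 2-fold rule under every alternative. Those that turned were Lin28a (0.110 with the mean of probes, 0.0207 with the deposited table), Sox2 (-0.104 and -0.0946 under the same alternatives), Rhox3a (-0.0546 without 2i-RFP+ and 0.1917 without 2i-RFP-) and Rhox12 (-0.0603 with the deposited table). Another 9 passed the rule under some alternative, and 19 fell under it somewhere, among them Prdm1 (0.94 without background correction and 0.44 with the deposited table), Scml2 (0.61), Mid1 (-0.64), Usp9x (0.31), Ddx3y (-0.37), Sox21 (-0.57), Meg3 (0.52), Sms (0.70), Prlr (0.91), Kdm6a (0.92), Pmaip1 (0.64), Slc6a13 (0.82), Slc32a1 (-0.85), Grb10 (-0.92), Rbmx (1.06), Fgf17 (-1.04), Wnt3a (-1.02) and Zscan4c (-1.07) with the deposited table. That table averages all probes of a target and has no background correction, and the cause of these changes was not tested further. Signal over background limits the genes undetected in a group, which have bounds in place of folds.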

Other observations

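Replication-dependent histone genes, which supply the histones of newly copied DNA, were mostly higher in the 2i-derived samples. Of 53 measured genes 46 lay above 0, 21 were higher by the 2-fold rule and 0 lower, with a median log2 difference of 0.68. Of all genes 48.2% lay above 0 and 1.96% were higher by the rule. H4c3 was at 7.54 and 7.43 against 5.40 in AFF204#21 and 5.56 in R1 (4.26-fold). H3c3 was 3.54-fold, H4c17 3.08-fold and H2ac4 3.03-fold higher. Bin 2 of the 10 bins of chromosome 13, where 11 of 41 genes were higher, had a median of 0.59, the only autosomal bin at or above 0.25. Copies of these genes are nearly identical, so probes may not tell them apart, and the family was gathered after its values were seen.

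Of 9 measured claudin genes, which seal epithelial junctions, Cldn3 was higher with a log2 difference of 1.28 and none was lower by the 2-fold rule, with a median of -0.13. This family was also gathered after the values were seen.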
